A study of Mus musculus with 21 samples.

Results

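The naive pluripotency and Dppa genes described here are 10 genes: Esrrb, Zfp42, Tfcp2l1, Tbx3, Prdm14, Nr0b1, Dppa2, Dppa4, Dppa5a and Fgf4. They were chosen by name, as all probe sets whose platform annotation gave a single gene symbol that is one of these names. This gave 22 probe sets of the 34945 with 1 symbol, and 10 genes of 18193. Tbx3 had 5 probe sets, Fgf4 had 4, Esrrb and Tfcp2l1 had 3 each, Dppa2 had 2 and the other genes had 1 each.

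The study measured RNA on 21 Affymetrix expression arrays of mouse cells, with 3 arrays in each of 7 groups. Androgenetic haploid embryonic stem (ahES) cells, which carry 1 set of chromosomes of paternal origin, came from the lines AH129-5, AH129-N1 and AH129-NC1. Diploid embryonic stem (ES) cells came from the lines CS1-1 and R1, and all 5 lines had a 129 Sv background and grew in N2B27 medium with 2i and LIF. Round sperm, the haploid cells that follow meiosis, were isolated fresh from 129 Sv testis, and mouse embryonic fibroblasts (MEF) of CD1 background grew in DMEM with serum. The ahES cells and the round sperm were haploid G0/G1 cells collected by FACS, whereas no sort is stated for the diploid ES cells, so ploidy and sorting cannot be told apart in the comparison of ahES with diploid ES cells. The labels call the 3 arrays of a group biological replicates without naming separate cultures or animals, so p-values measure the spread between these samples.

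Naive pluripotency is the state of the early epiblast, which mouse ES cells keep when MEK and Gsk3 are inhibited (the 2i condition) and LIF signals through Stat3. Esrrb is a target that the Wnt and Gsk3 arm releases from the repressor Tcf7l1, while Tfcp2l1 lies downstream of LIF and Stat3. Fgf4 is the ligand by which ES cells activate ERK and leave this state, and Prdm14 restrains FGF receptor signalling and the de novo DNA methyltransferases. Dppa2 and Dppa4 are neighbouring genes whose SAP-domain proteins bind chromatin together.

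All values below are levels on the scale log2(signal + 9.73), where the signal is the deposited MAS5 value and the offset damps noise at low signals. Differences are on the same log2 scale, with the standard error from limma. Testing needed a group, of those compared, with its 3 arrays above their own 40th percentile, a level of 5.34 to 5.63. A gene counts as called at an adjusted p under 0.05 and at least 2-fold, and the smaller differences that pass on p alone are given as such. All 10 genes were above the 40th percentile on every array of the 5 ES lines. Arrays of 1 group correlated at 0.970 to 0.985 across 15403 genes, and each of the 21 arrays correlated best within its group. The labelled kinds matched their markers: 12 of 12 round spermatid genes were above the 40th percentile in round sperm, and the summed signal of 29 fibroblast genes was 415000 to 431000 in MEF and at most 67300 on any ES array. Their count above the 40th percentile does not set MEF apart, being 29 of 29 in MEF and 24 to 29 in the ES lines.

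The 5 ES lines held every one of the 10 genes far above MEF and round sperm. In ahES cells 10 of 10 were higher than in MEF, where 21.2% of 13224 genes were called higher, and in diploid ES cells 10 of 10, where 22.6% of 13016 were. Against round sperm 10 of 10 were higher in ahES cells and 10 of 10 in diploid ES cells, beside 40.8% of the genes tested in each of these comparisons. The ranges over arrays did not overlap for any of the 10 genes in these 4 comparisons, beside 63.5% of all genes against MEF and 78.6% against round sperm in ahES cells, and 70.4% and 81.0% in diploid ES cells. The 4 comparisons share their ES, MEF and round sperm arrays. Their standard errors and p-values measure the spread between arrays of a group, and leave out the spread between ES lines. Of the 10 genes, 2 were above the 40th percentile on all 3 arrays in MEF, and 4 in round sperm. The others passed the filter only through the ES lines, and could hardly have been called lower there. RNA quality moved with the comparison to round sperm: the 3′ minus 5′ log2 difference of the Gapdh control probe sets averaged -0.24 ± 0.08 in ahES cells (SD, n = 9), -0.24 ± 0.04 in diploid ES cells (n = 6), 0.55 ± 0.17 in round sperm and -0.21 ± 0.04 in MEF (n = 3 each). Its part in these differences was not tested.

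**Figure D1:**
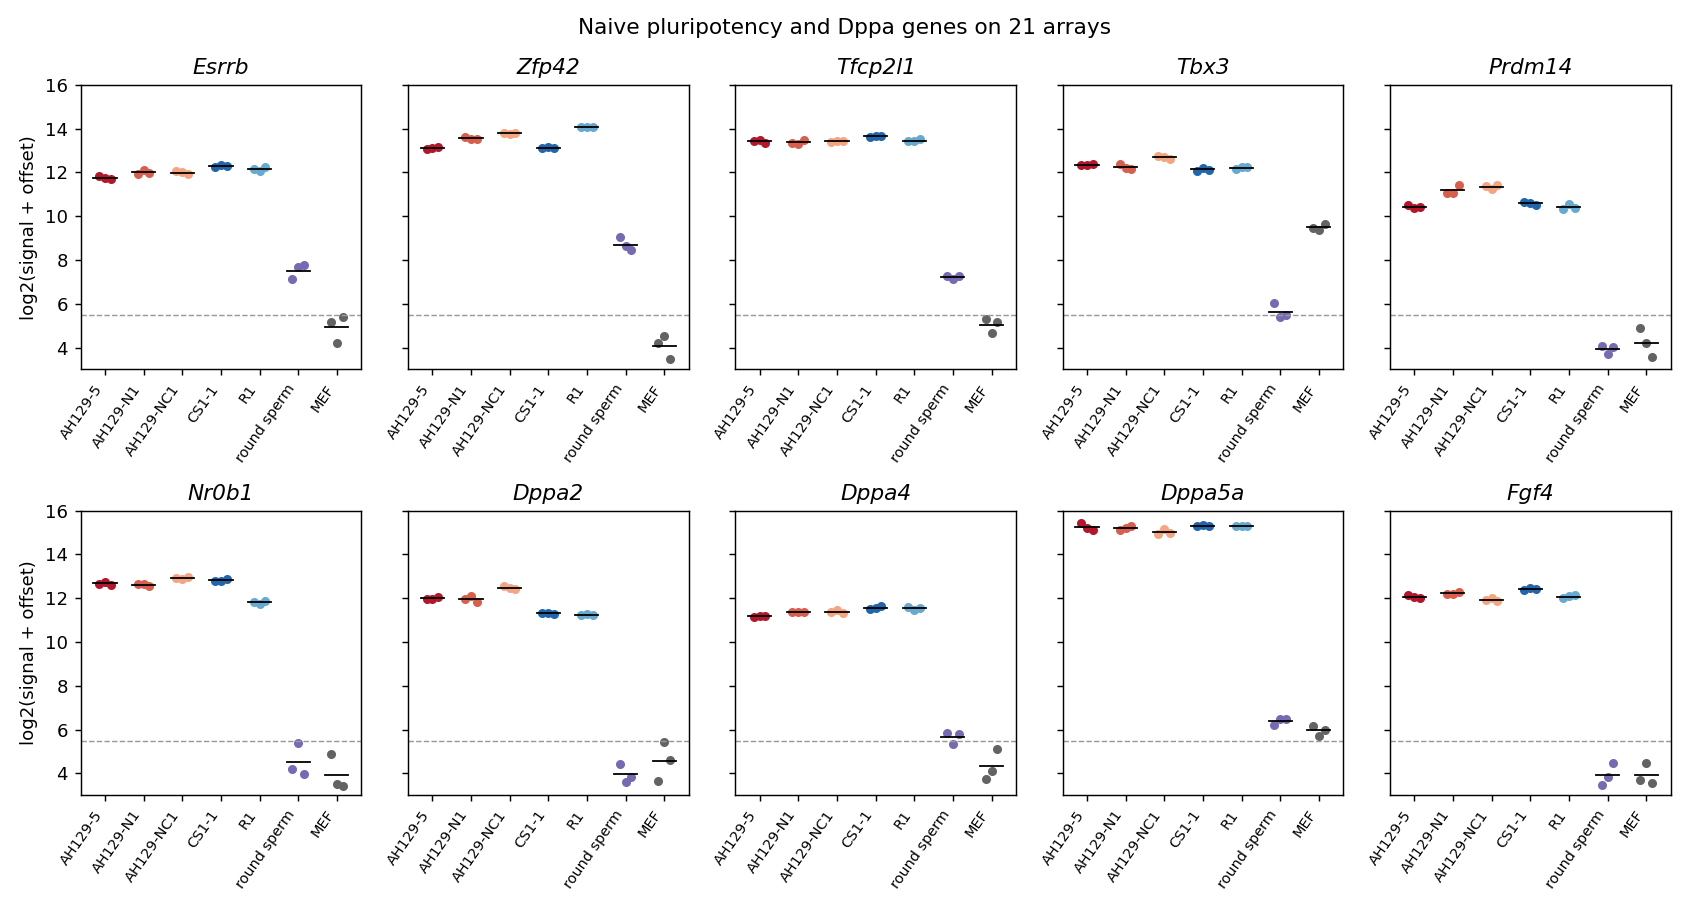
Level of each gene's representative probe set (that of the highest mean), as log2(signal + offset), on the 21 arrays: each point is 1 array, each bar is the mean of the 3 arrays of a group, and the dashed line is the mean 40th percentile of the arrays (5.49). The ES lines lie well above round sperm and MEF for every gene, Tbx3 has its lowest level in round sperm and an intermediate one in MEF, and Esrrb, Zfp42 and Tfcp2l1 stand higher in round sperm than in MEF.

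Dppa5a, which encodes a KH-domain RNA-binding protein, had levels of 14.95 to 15.45 in ahES cells (median 15.17), 15.28 to 15.35 in diploid ES cells (median 15.30), 6.20, 6.48 and 6.49 in round sperm, and 6.17, 5.71 and 5.99 in MEF. It was 594-fold higher in ahES cells and 653-fold higher in diploid ES cells than in MEF. Against round sperm it was 438-fold higher in ahES cells and 483-fold higher in diploid ES cells. Its ranges did not overlap between the ES lines and either of the other kinds.

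Tbx3, a T-box factor that also works in limb and heart development, differed from the rest in that MEF held a clear signal of it. Its levels were 12.14 to 12.76 in ahES cells (median 12.38), 12.08 to 12.27 in diploid ES cells (median 12.19), 6.02, 5.41 and 5.51 in round sperm, and 9.47, 9.39 and 9.65 in MEF. It was 7.63-fold higher in ahES cells (2.93 ± 0.09, adjusted p = 5.156e-17) and 6.42-fold higher in diploid ES cells (2.68 ± 0.10, adjusted p = 6.701e-16) than in MEF, and 110-fold and 92.8-fold higher in these ES cells than in round sperm. In round sperm only 1 of 3 arrays was above the 40th percentile, and a second bright probe set, 1437479_x_at, was near background (mean 4.65). The folds over round sperm thus rest on a level close to background.

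The representative probe sets of the other 8 genes were near background in MEF, meaning that their mean there was at or below the mean 40th percentile, so the folds of these probe sets over MEF are lower bounds set against that percentile. Zfp42 (also called Rex1), a zinc finger factor widely used as a marker of the naive state, was at least 264-fold higher in ahES cells and at least 286-fold higher in diploid ES cells. Tfcp2l1 was at least 250-fold and at least 276-fold higher, and Nr0b1, an orphan nuclear receptor also known as Dax1, at least 157-fold and at least 117-fold. Prdm14 had the smallest of these bounds, at least 46.7-fold in ahES cells and at least 33.4-fold in diploid ES cells. For Esrrb, Dppa2, Dppa4 and Fgf4 the bounds lay between 57.0-fold and 111-fold over both kinds of ES cell. Other probe sets of Esrrb and Fgf4 were above background in MEF and differed by less. Esrrb 1441921_x_at averaged 6.15 in MEF and was higher by 3.31 ± 0.18 in ahES cells and 3.88 ± 0.19 in diploid ES cells. Fgf4 1450282_at averaged 6.44 in MEF and was higher by 2.26 ± 0.20 in ahES cells and 2.32 ± 0.21 in diploid ES cells.

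Of the 10 genes, Prdm14, Nr0b1, Dppa2 and Fgf4 were also near background in round sperm, with means of 3.92 to 4.52 there. Their lower bounds over round sperm were 44.8-fold for Prdm14, 150-fold for Nr0b1, 99.5-fold for Dppa2 and 95.1-fold for Fgf4 in ahES cells, and 32.0-fold, 112-fold, 54.6-fold and 107-fold in diploid ES cells. Esrrb differed from round sperm by 4.40 ± 0.17 in ahES cells and 4.71 ± 0.18 in diploid ES cells, and its other 2 probe sets by 1.95 to 2.71 in ahES cells and 2.10 to 3.29 in diploid ES cells. Zfp42 differed by 4.78 ± 0.14 in ahES cells and 4.90 ± 0.15 in diploid ES cells. In bulk samples a lower level can mean fewer cells of a type or less RNA per cell, and these cannot be told apart.

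Round sperm carried signal of part of the group. Of the 10 genes, 5 could be tested between round sperm and MEF, and 3 of them were called higher in round sperm (34.5% of 14431 genes were) and 1 lower (41.7% were). The 3 higher ones, Zfp42, Esrrb and Tfcp2l1, were near background in MEF and passed the filter only through round sperm. They could thus hardly have been called lower, and their calls describe the levels only. Zfp42 had levels of 9.03, 8.64 and 8.45 in round sperm and 4.21, 4.55 and 3.49 in MEF, at least 9.60-fold higher (adjusted p = 9.416e-16). Esrrb had 7.11, 7.68 and 7.77 in round sperm and 5.16, 4.20 and 5.39 in MEF, at least 4.18-fold higher (adjusted p = 2.36e-10). Tfcp2l1 had 7.27, 7.13 and 7.26 in round sperm and 5.30, 4.65 and 5.16 in MEF, at least 3.43-fold higher (adjusted p = 1.69e-14). All 3 had ranges that did not overlap, beside 89.7% of all genes tested there.

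Tbx3 went the other way and was 14.4-fold lower in round sperm than in MEF (-3.85 ± 0.11, adjusted p = 1.762e-18). Its level in round sperm was close to background, so the size of this fold is uncertain. Dppa5a was higher by 0.44 ± 0.10 (adjusted p = 0.0004918), short of 2-fold. Dppa4 did not pass the filter, and had levels of 5.86, 5.34 and 5.80 in round sperm and 3.75, 4.09 and 5.12 in MEF. It was called higher without the filter (adjusted p = 5.871e-06) and without round sperm replicate 2 (adjusted p = 4.973e-06), but as it was near background in MEF its bound was at least 1.17-fold. The other 2 Esrrb probe sets were less far apart: 1422986_at averaged 6.55 in round sperm and 5.16, near background, in MEF (adjusted p = 8.333e-08), and 1441921_x_at differed by 0.59 ± 0.22 (adjusted p = 0.0152, under 2-fold).

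Spermatogonia and spermatocyte genes were also measured in round sperm, with 9 of 10 and 10 of 10 above the 40th percentile, against 8 of 13 Sertoli cell genes and 1 of 5 Leydig cell genes. The summed signal of the spermatogonia list was 1420 to 2000 in round sperm and 3780 to 4360 in MEF, and that of the spermatocyte list was 21000 to 22500 in round sperm and 217 to 315 in MEF. The Sertoli cell list had 1190 to 1790 in round sperm and 1230 to 1310 in MEF, and the Leydig cell list 238 to 297 in round sperm and 86 to 174 in MEF. These sums are set between groups within a list, not between lists. Of the 13 Sertoli cell genes, Amh, Wt1, Dhh and Tsx were near background in round sperm. Between round sperm and MEF, Aard, Cst9, Cst12 and Fshr of this list were called higher and Clu, Sox9 and Wt1 lower, and Sox9 averaged 5.89 in round sperm and 7.76 in MEF. RNA quality moved with this contrast too: besides the Gapdh values above, the 3′ minus 5′ difference of Actb was 0.74 ± 0.25 in round sperm and 0.34 ± 0.06 in MEF. The part of other testis cells and of RNA quality in the Zfp42, Esrrb and Tfcp2l1 signals was not tested.

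Whether haploid and diploid ES cells differ in these genes was the closest comparison of the design. With the line as a random block (consensus correlation 0.687), 0 of the 10 genes were called between ahES and diploid ES cells, beside 4.38% of 12880 genes. By p alone, 1 of the 10 passed, beside 11.7% of all genes tested, and this gene was Dppa2. The median difference over the 10 genes was -0.13, beside -0.03 over all genes. The arrays were fully apart for 2 of the 10, Dppa2 and Dppa4, beside 14.1% of all genes.

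Dppa2 was 1.82-fold higher in ahES cells. Its levels were 11.97, 11.95 and 12.07 in AH129-5, 11.96, 12.10 and 11.81 in AH129-N1, 12.54, 12.47 and 12.41 in AH129-NC1, 11.33, 11.31 and 11.27 in CS1-1, and 11.25, 11.26 and 11.23 in R1. All 9 ahES arrays thus stood above all 6 diploid ES arrays, with AH129-NC1 apart at the top, and the difference was 0.87 ± 0.14 (95% interval 0.58 to 1.15, adjusted p = 0.0001425). The second Dppa2 probe set differed by 0.64 ± 0.13 (adjusted p = 0.001967 over 27511 probe sets). Leaving out any 1 of the 5 lines gave 0.70 to 0.96, with adjusted p of 0.0001025 to 0.001683. With 1 mean per line as the unit, the difference was 0.87 and the adjusted p was 0.05558, no longer under the threshold.

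Dppa4, whose protein pairs with that of Dppa2, did not follow it. Dppa4 lies at 48283735 to 48294292 on chromosome 16 and Dppa2 at 48310274 to 48319513 (GRCm38.p6), with 0 annotated genes between them. Dppa4 levels were 11.15, 11.21 and 11.18 in AH129-5, 11.35, 11.38 and 11.38 in AH129-N1, 11.38, 11.44 and 11.33 in AH129-NC1, 11.52, 11.55 and 11.63 in CS1-1, and 11.62, 11.46 and 11.57 in R1. All ahES arrays stood below all diploid ES arrays, but the difference of -0.25 ± 0.10 missed the threshold (95% interval -0.47 to -0.03, adjusted p = 0.1347).

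In this fit, which takes 1 consensus correlation for all genes, the other 8 genes had 95% intervals within 2-fold in both directions. For Nr0b1 and Zfp42 the line means ranged over 1.11 and 0.96, beside within-line SDs of 0.06 and 0.04. Their intervals can therefore be too narrow for the spread between lines, and do not show that the 2 kinds of ES cell are alike. Prdm14 differed by 0.48 ± 0.21 (interval 0.05 to 0.92, adjusted p = 0.153), Nr0b1 by 0.43 ± 0.18 (0.06 to 0.79, adjusted p = 0.134) and Esrrb by -0.31 ± 0.11 (-0.54 to -0.07, adjusted p = 0.0867). Tbx3 differed by 0.25 (-0.01 to 0.50), Fgf4 by -0.17 (-0.41 to 0.07), Tfcp2l1 by -0.15 (-0.34 to 0.05), Dppa5a by -0.14 (-0.40 to 0.12) and Zfp42 by -0.12 (-0.51 to 0.28). Single lines decided some of these: without AH129-5, Prdm14 differed by 0.76 (adjusted p = 0.008114). Without CS1-1, Nr0b1 differed by 0.92 (adjusted p = 5.769e-05) and Zfp42 by -0.58 (adjusted p = 0.02793), whereas without R1 they differed by -0.07 and 0.35, with adjusted p of 0.7732 and 0.1574.

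Nr0b1 is the one X-linked gene of the 10. The median difference between ahES and diploid ES cells was 0.90 over 453 X-linked genes, of which 37.1% were called higher, and -0.04 over autosomal genes, so that 0.43 lay below the X-linked median. Its part in the Nr0b1 value was not tested.

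**Figure D2:**
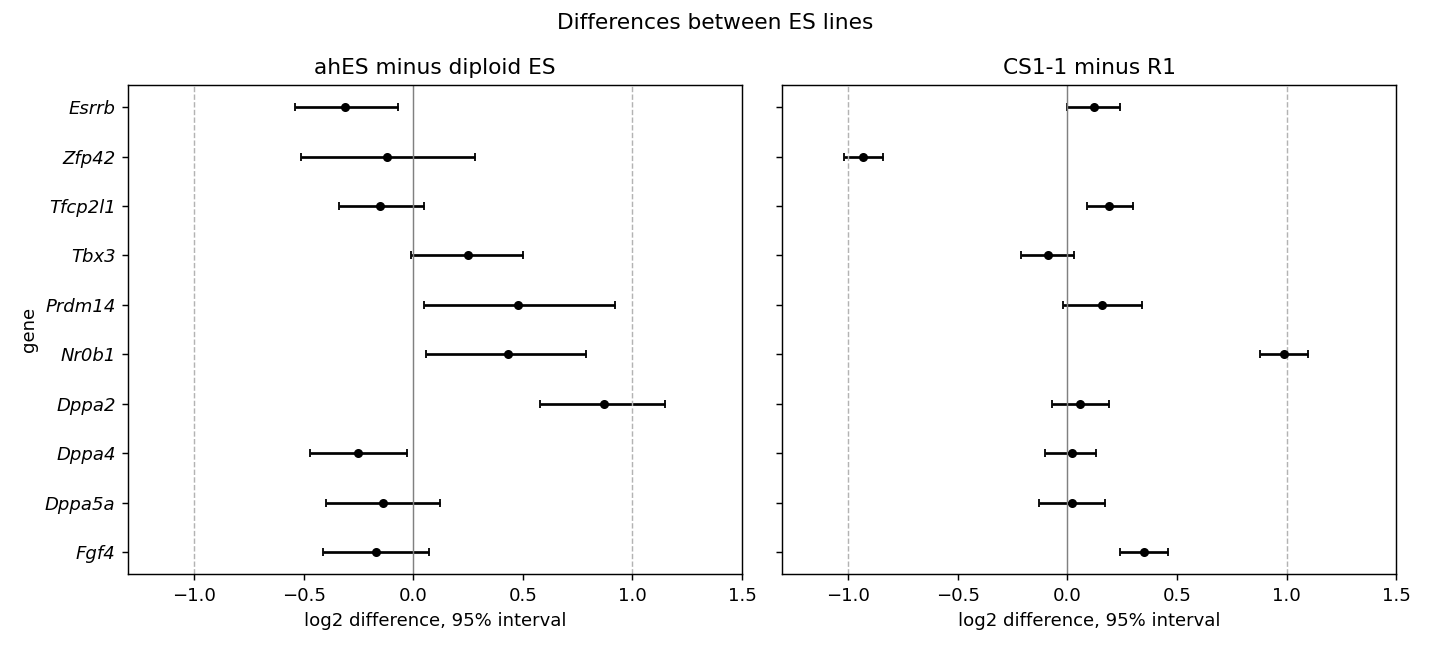
Differences on the log2 scale with 95% intervals (horizontal axes) for the 10 genes, ahES minus diploid ES on the left and CS1-1 minus R1 on the right; the dashed lines mark 2-fold. Dppa2 stands at 0.87 on the left and 0.06 on the right, while Nr0b1 (0.99) and Zfp42 (-0.93) stand near 2-fold on the right.

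The 2 diploid ES lines differed from each other in Nr0b1 and Zfp42 by almost 2-fold, in opposite directions. None of the 10 genes was called, beside 9.88% of 12088 genes, and by p alone 4 passed, beside 49.7% of all genes. The arrays of CS1-1 and R1 were fully apart for 5 of the 10, beside 60% of all genes. A p-value here measures the spread between arrays of a line only.

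Nr0b1 had levels of 12.78, 12.78 and 12.88 in CS1-1 and 11.84, 11.73 and 11.88 in R1. R1 was also below all ahES arrays, which lay between 12.54 and 12.95. The difference was 0.99 ± 0.05 (1.99-fold, adjusted p = 5.984e-12), and it was 0.95 to 1.02 with single arrays left out. Without CS1-1 replicate 1, CS1-1 replicate 2, R1 replicate 1 or R1 replicate 3 it was past 2-fold, and the gene was called. The median over 392 X-linked genes was -0.09 in the same comparison.

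Zfp42 had levels of 13.13, 13.17 and 13.12 in CS1-1 and 14.06, 14.06 and 14.09 in R1, a difference of -0.93 ± 0.04 (1.90-fold lower in CS1-1, adjusted p = 1.122e-12). The R1 arrays stood above every other array of the series. Zfp42 lies on chromosome 8, between 43295067 and 43307009. The 657 genes of chromosome 8 tested in this comparison had a median difference of -0.33, and 77.2% of them were below 0, beside 48.3% of all genes. The medians of the other chromosomes lay between -0.09 and 0.18. The part of this shift in the Zfp42 difference was not tested.

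Fgf4 had levels of 12.38, 12.45 and 12.43 in CS1-1 and 12.00, 12.08 and 12.13 in R1 (0.35 ± 0.05, adjusted p = 1.782e-05), and a second probe set gave 0.32 ± 0.05 while the 2 dimmer ones gave 0.05 and -0.23. Tfcp2l1 differed by 0.19 ± 0.05 (adjusted p = 0.004003). Intervals for Dppa2 (-0.07 to 0.19), Dppa4 (-0.10 to 0.13) and Dppa5a (-0.13 to 0.17) lay close to 0, and those for Esrrb, Tbx3 and Prdm14 lay between -0.21 and 0.34.

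Fibroblast genes moved with this comparison: 25 of 29 tested were called lower in CS1-1 than in R1 (5.69% of all genes were), and their summed signal was 28300 to 29600 in CS1-1 and 65500 to 67300 in R1, beside 46800 to 62900 in the ahES lines and 415000 to 431000 in MEF. The representative probe sets of 8 of the 10 genes were near background in MEF, and the Tbx3 level of MEF (mean 9.50) lay below that of both lines (12.14 in CS1-1 and 12.23 in R1). The part of fibroblasts in the differences of the 10 genes between CS1-1 and R1 was not tested.

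Sequence upstream of the start was given for 5 of the 10 genes, credited to RefSeq (GRCm38.p6), and 250 bases before the start are shown for the 3 of them with the largest differences between CS1-1 and R1. Dppa2, Dppa4, Dppa5a, Prdm14 and Tbx3 were not in the table. Capitals mark matches to 3 motifs searched on both strands: the octamer ATTTGCAT, bound by Pou5f1 and related POU factors, the nuclear receptor half-site AGGTCA, and the TATA box TATAAA. The Zfp42 window is from the minus strand at chr8:43307010-43307259, and those of Nr0b1 (chrX:86191525-86191774) and Fgf4 (chr7:144861136-144861385) from the plus strand.
Zfp42: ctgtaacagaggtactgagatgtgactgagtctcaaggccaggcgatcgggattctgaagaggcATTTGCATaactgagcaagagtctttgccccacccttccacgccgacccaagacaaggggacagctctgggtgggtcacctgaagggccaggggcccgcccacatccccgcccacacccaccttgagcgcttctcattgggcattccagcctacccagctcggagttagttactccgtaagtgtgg
Nr0b1: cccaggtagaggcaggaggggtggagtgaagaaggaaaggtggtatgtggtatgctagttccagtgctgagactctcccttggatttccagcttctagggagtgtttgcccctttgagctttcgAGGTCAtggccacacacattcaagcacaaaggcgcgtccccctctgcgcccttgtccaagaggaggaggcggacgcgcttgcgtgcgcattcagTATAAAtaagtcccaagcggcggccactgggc
Fgf4: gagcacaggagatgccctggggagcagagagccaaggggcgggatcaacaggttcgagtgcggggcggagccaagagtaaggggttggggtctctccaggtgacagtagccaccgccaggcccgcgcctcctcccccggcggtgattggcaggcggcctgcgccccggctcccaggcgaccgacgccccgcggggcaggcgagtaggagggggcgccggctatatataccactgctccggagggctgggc
The Zfp42 window held the octamer at bases 186 to 179 before the start, and 1.6% of the 32851 windows of all genes held one. The Nr0b1 window held the half-site at bases 126 to 121 and the TATA box at bases 32 to 27, which 14.0% and 12.4% of all windows held. The Fgf4 window held no exact match to the 3 motifs. Near matches, such as its tatatata run, were not searched. This window had 21 CpG, against 11 for Nr0b1, 9 for Zfp42 and a median of 6 over all windows. A match describes the letters and is no evidence of binding.

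Among the 3 ahES lines, AH129-NC1 stood highest for Dppa2, Tbx3, Nr0b1 and Zfp42, and AH129-5 was low for Prdm14 and Zfp42. None of the 10 genes was called in any pair, beside 5.33% of 12148 genes between AH129-5 and AH129-N1, 5.37% of 12188 between AH129-5 and AH129-NC1, and 3.15% of 12070 between AH129-N1 and AH129-NC1. By p alone 5, 9 and 6 of the 10 passed in these pairs, beside 42.8%, 39.4% and 36.2% of all genes. These p-values too measure the spread between arrays of a line only. The ranges did not overlap for 5, 8 and 5 of the 10, beside 51.1%, 48.0% and 47.4%.

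Prdm14 had levels of 10.51, 10.37 and 10.42 in AH129-5, 11.06, 11.07 and 11.41 in AH129-N1, and 11.39, 11.23 and 11.43 in AH129-NC1. AH129-5 differed from AH129-N1 by -0.75 ± 0.09 (1.68-fold lower, adjusted p = 1.405e-06) and from AH129-NC1 by -0.92 ± 0.09 (1.89-fold lower, adjusted p = 9.782e-08). Its arrays overlapped those of the diploid lines, at 10.67, 10.59 and 10.50 in CS1-1 and 10.35, 10.57 and 10.36 in R1. The AH129-N1 and AH129-NC1 arrays lay above all of these.

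Zfp42 had levels of 13.06, 13.13 and 13.15 in AH129-5, 13.64, 13.53 and 13.52 in AH129-N1, and 13.80, 13.78 and 13.82 in AH129-NC1. The 3 lines did not overlap, with differences of -0.45 ± 0.04 for AH129-5 minus AH129-N1, -0.68 ± 0.04 for AH129-5 minus AH129-NC1 and -0.24 ± 0.04 for AH129-N1 minus AH129-NC1. The median of chromosome 8 genes was between 0.03 and 0.10 in these 3 pairs. Dppa2 differed by -0.48 ± 0.06 for AH129-5 minus AH129-NC1 and -0.52 ± 0.06 for AH129-N1 minus AH129-NC1, and Tbx3 by -0.32 ± 0.06 and -0.45 ± 0.06. A second bright Tbx3 probe set, 1437479_x_at, differed by less in these pairs, at -0.05 ± 0.07 (adjusted p = 0.647 in limma) and -0.20 ± 0.07.

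**Figure D3:**
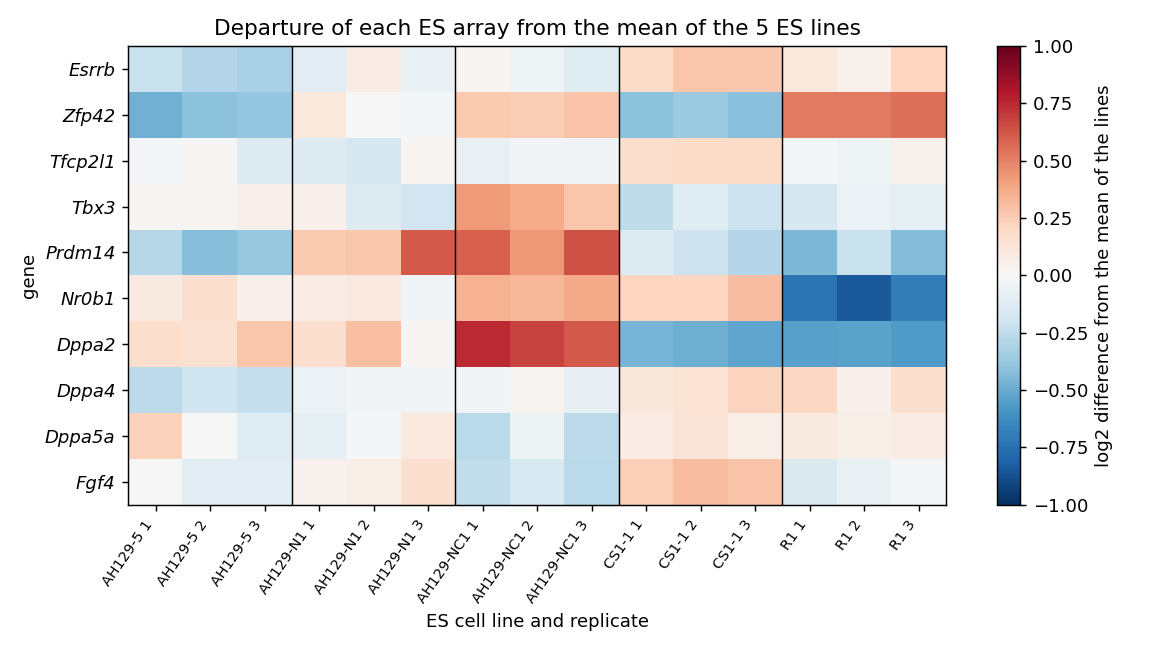
Departure of each of the 15 ES arrays (columns, by line and replicate) from the mean of the 5 line means, on the log2 scale, for each gene (rows); red is above and blue below. Dppa2 is above its mean in AH129-NC1 and below it in CS1-1 and R1, Nr0b1 is lowest in R1, and Zfp42 is low in AH129-5 and CS1-1 and high in R1.

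Over the 5 ES lines, the range of line means was 1.23 for Dppa2, 1.11 for Nr0b1, 0.96 for Zfp42 and 0.93 for Prdm14, and lay between 0.27 (Tfcp2l1) and 0.55 (Tbx3) for the other 6. Its median was 0.54 over the 10 genes, beside 0.74 over 12880 genes. The pooled SD within lines was 0.04 to 0.12. In the order of levels the top line was AH129-NC1 for Dppa2, Tbx3, Prdm14 and Nr0b1, CS1-1 for Esrrb, Tfcp2l1, Dppa4, Dppa5a and Fgf4, and R1 for Zfp42. The top line did not overlap the next for Dppa2, Tbx3, Nr0b1, Tfcp2l1, Fgf4 and Zfp42, and overlapped it for Esrrb, Prdm14, Dppa4 and Dppa5a. For Tbx3 this rests on the representative probe set, whereas 1437479_x_at averaged 12.28 in CS1-1 and 12.27 in AH129-NC1. Tfcp2l1 lay at 13.30 to 13.51 in R1 and the 3 ahES lines, which overlapped, and at 13.64 to 13.66 in CS1-1.

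Probe sets of 1 gene mostly ran together where they were above background. Each of the 4 Fgf4 probe sets, the 2 Dppa2 probe sets and the 3 Esrrb probe sets had higher means in every ES line than in round sperm and MEF, as had 3 of the 5 Tbx3 probe sets, although 1439567_at among these was near background in CS1-1, R1, round sperm and MEF. The Tbx3 probe set 1444594_at and 2 of 3 Tfcp2l1 probe sets were near background in all 7 groups, and carried no measure of the gene. The Tbx3 probe set 1445757_at had means of 5.11, 4.66 and 5.38 in AH129-5, AH129-N1 and AH129-NC1 and 7.02 and 6.36 in CS1-1 and R1 (-1.64 ± 0.71, adjusted p = 0.1644), opposite in sign to the representative one but not past the threshold. The probe set 1439567_at gave 0.73 ± 0.53 (adjusted p = 0.465) and 1437479_x_at gave -0.04 ± 0.11. The Fgf4 probe set 1450282_at had means of 5.29 in round sperm, near background there, and 6.44 in MEF (adjusted p = 0.0001344), while the representative one was near background in both.

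**Figure D4:**
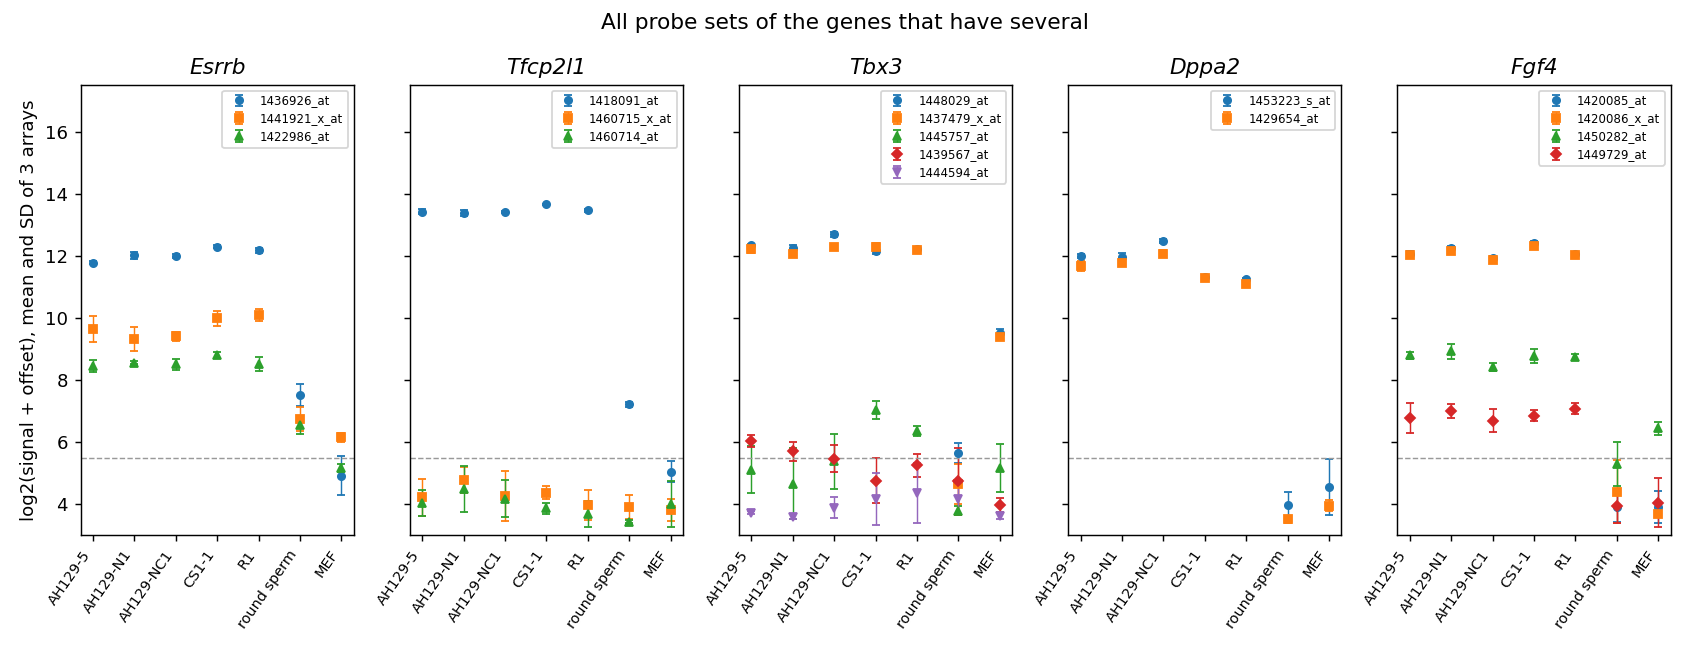
Mean level and SD of 3 arrays, as log2(signal + offset), for every probe set of the 5 genes that have several, by group; the dashed line is the mean 40th percentile (5.49). In Tfcp2l1, 2 probe sets stay below the dashed line in all groups, as does 1444594_at of Tbx3, and both Dppa2 probe sets are above it in the ES lines and below it in round sperm and MEF.

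The other genes of this network were listed by arm, without regard to chromosome. X-linked genes as a whole were higher in ahES than in diploid ES cells (median 0.90, 37.1% called higher). The part of this shift in the list values was not tested. Between ahES and diploid ES cells, 0 of 23 other pluripotency genes and 0 of 10 genes of the LIF and Stat3 arm were called, with median differences of -0.12 and 0.07 beside -0.03 over all genes. Of 11 genes of the Wnt and Tcf7l1 arm 1 was called, Porcn, which acylates Wnt ligands. Porcn averaged 7.85 ± 0.29 in ahES cells and 5.68 ± 1.24 in diploid ES cells (SD, n = 9 and 6), with an adjusted p of 0.008772 in limma, and no fold is given because it was near background in R1. Of 17 genes of the FGF and ERK arm 1 was called, the receptor gene Fgfr2, 3.29-fold higher (1.72 ± 0.33, adjusted p = 0.001128). Fgfr2 was called lower in ahES and in diploid ES cells than in MEF. The fibroblast list had a median of 0.83 between ahES and diploid ES cells, and the part of fibroblasts in the Fgfr2 value was not tested.

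Of 10 tested primed epiblast genes, 5 were called higher in ahES cells (3.01% of all genes were) and 1 lower (1.37% were), with a list median of 1.12. The fibroblast list, with 2 of 29 called higher (Dcn and Lum) and 1 lower (Tgfbi), had a median of 0.83 beside -0.03 over all genes, and its part in the primed epiblast values was not tested. The higher ones were Dnmt3a, Dnmt3b, Lefty2, Sox3 and Zic2, and the lower one was Eomes. Dnmt3b, a de novo DNA methyltransferase, averaged 11.98 ± 0.12 in ahES cells (SD, n = 9) and 10.72 ± 0.18 in diploid ES cells (n = 6), 2.39-fold higher. Dnmt3a, the other de novo methyltransferase, was 2.33-fold higher (1.22 ± 0.25). Lefty2, an inhibitor of Nodal, was 2.94-fold higher (1.56 ± 0.24), and Zic2, a zinc finger factor, 2.64-fold higher (1.40 ± 0.26). Fgf5, Fgf8 and Cer1 of the same list were near background in all 5 ES lines. Of 15 listed 2-cell-like genes, the programme that Dppa2 and Dppa4 activate, 4 were tested and 0 were called, with a median of 0.81. The summed signal of the 6 measured was 5780 to 7070 in AH129-5, 8860 to 10100 in AH129-N1 and 1990 to 2290 in AH129-NC1. It was 2930 to 3140 in CS1-1 and 2550 to 2750 in R1. Tcstv1 and Tcstv3 were near background in all 5 ES lines, and Zfp352 and Sp110 also in CS1-1. Of the 4 tested, only Dppa3 was called higher in AH129-5 and in AH129-N1 than in AH129-NC1. It is counted among the other pluripotency genes too. The sums can thus follow single genes, and do not measure the programme as a whole.

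Between CS1-1 and R1, where 4.19% of all genes were called higher and 5.69% lower, 11 genes of the same lists were called. Lef1, a Wnt effector (4.75-fold), and Fzd7, a Wnt receptor (2.59-fold), were higher in CS1-1 among 11 Wnt arm genes, as was Porcn, with means of 6.74 in CS1-1 and, near background, 4.62 in R1. Spry4, a feedback inhibitor of FGF signalling, was 6.11-fold lower, and Etv4, an ERK target, was lower with means of 5.12 in CS1-1, near background, and 6.84 in R1, while the receptor gene Fgfr3 was 2.16-fold higher, among 17 FGF arm genes. Among 10 primed epiblast genes Otx2 was 6.74-fold lower in CS1-1 and Nodal 2.08-fold lower. Of 23 other pluripotency genes, Gbx2 (2.73-fold) and Sox15 (2.41-fold) were higher, and of 2 tested 2-cell-like genes Usp17la was 9.74-fold lower. Fibroblast genes were lower in CS1-1 too, as given above. Among the genes lower in CS1-1, Spry4 and Etv4 were called lower in diploid ES cells than in MEF, and Otx2, Nodal and Usp17la higher. The part of fibroblasts in these values was not tested.

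Genes outside the group followed some of these patterns over the 15 ES arrays, which share 5 lines of 3 arrays, so that a correlation mostly follows the line means. The 2 genes with the highest Pearson r were Prpf4b (0.979) and Pias2 (0.968) for Zfp42, H2-Eb1 (0.975) and Sec11c (0.971) for Dppa2, Dner (0.966) and Dnajc3 (0.955) for Nr0b1, and Scd1 (0.981) and Mipep (0.962) for Fgf4. For Prdm14 they were Amotl1 (0.946) and Utp6 (0.943), for Tbx3 Tmem185b (0.938) and Mmp3 (0.933), and for Dppa4 Pagr1a (0.955) and Pigo (0.954). For Esrrb they were Pgm3 (0.954) and Med4 (0.950), for Tfcp2l1 Ipo5 (0.937) and Qdpr (0.918), and for Dppa5a the ribosomal protein genes Rps2 (0.967) and Rpsa (0.941).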

How the data were processed

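Total RNA of 21 samples was hybridised to Affymetrix expression arrays after 3′ IVT labelling, per the labels' protocols. The deposited values are log2 signals made by the authors with MAS5, per the submitters' processing notes, whose version and parameters are not given in the sources used here. The table holds 45101 probe sets with values from 0 to 15.66, and the 2% trimmed mean signal was 500 on every array. Genes were named from the platform annotation: 34945 probe sets had 1 symbol, 932 several and 9160 none, and 64 were controls. Levels of different probe sets are not compared with each other.

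The levels used were log2(signal + 9.73), the offset being the median of the 21 arrays' 20th percentiles. Where a gene had several probe sets, that of the highest mean over the 21 arrays was used. Tests used limma 3.58.1 with statmod 1.5.0 in R 4.3.3, with trend and robust moderation and Benjamini-Hochberg adjustment over all genes tested. The ahES against diploid ES comparison used the line as a random block, and other comparisons a mean per group over 21 arrays, or per line over the 15 ES arrays. The workflow was tested on simulated data with changes of 2 on the log2 scale. Smaller changes were not simulated, and the simulated spread between lines was set equal to that within lines. The simulation thus does not bear on the differences under 2-fold. Same-numbered arrays of different groups did not deviate together (63 pairs, correlation -0.058 to 0.046), so replicate numbers did not pair the arrays. The number of arrays limits the precision.

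The 10 genes and all lists were chosen with earlier results of these data known. The genes named are the 10 genes with all their probe sets, up to 4 called genes with the smallest adjusted p from each of 6 lists in ahES minus diploid ES and in CS1-1 minus R1, the 2 genes most correlated with each of the 10, and any set of 5 or fewer called. Alternatives changed the offset, filter, normalization, probe set rule, moderation, block, lines and arrays.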

Additional observations from a re-analysis of the deposited data

Results flagged for a closer look

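Differences between ahES cells and each of the 2 diploid ES lines were not the same for 4 of the 10 genes, because CS1-1 and R1 differed from each other at an adjusted p under 0.05 (limma, beside 49.7% of all genes tested). The difference ahES minus R1 exceeded ahES minus CS1-1 by 0.99 on the log2 scale for Nr0b1 (adjusted p = 5.984e-12), by 0.35 for Fgf4 (adjusted p = 1.782e-05) and by 0.19 for Tfcp2l1 (adjusted p = 0.004003). For Zfp42 the same quantity was -0.93 (adjusted p = 1.122e-12). As the mean over a gene's probe sets, Fgf4 (adjusted p = 0.1246) and Tfcp2l1 (adjusted p = 0.3042) no longer passed. The Tfcp2l1 mean takes in 2 probe sets that were near background in all 7 groups. Nr0b1 and Zfp42 have 1 probe set each, so that this alternative leaves their values unchanged and does not test them. The causes of the 4 differences were not tested.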

How the results depend on the processing

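Over all alternatives, 95 differences of the 10 genes were recomputed 2808 times; 2779 of these kept their direction and their side of the rule for a call (adjusted p under 0.05 and 2-fold), 7 newly passed it, 0 lost it and 22 changed sign. None of the 22 was called either way, and the largest of them was 0.43 as reported. In ahES minus diploid ES, Zfp42 was 0.07 without AH129-5 and 0.35 without R1, Nr0b1 was -0.07 without R1, Fgf4 was 0.01 without CS1-1, and as the mean over a gene's probe sets Tfcp2l1 was 0.19 and Tbx3 -0.25. Median centring moved AH129-5 against AH129-N1 and AH129-NC1 by 0.15. In AH129-5 minus AH129-N1 it gave Tfcp2l1 -0.11, Tbx3 -0.03, Nr0b1 -0.10, Dppa2 -0.11 and Dppa5a -0.11, the mean over probe sets gave Tfcp2l1 -0.32 and Dppa2 -0.02, and leaving out _x_at and _s_at probe sets gave Dppa2 -0.08. In AH129-N1 minus AH129-NC1 the mean over probe sets gave Tfcp2l1 0.25. Leaving out single arrays, differences near 0 spanned it: Dppa5a -0.06 to 0.12 and Dppa2 -0.03 to 0.11 in AH129-5 minus AH129-N1, Esrrb -0.04 to 0.06 and Dppa4 -0.04 to 0.02 in AH129-N1 minus AH129-NC1, and Dppa4 -0.03 to 0.05 in CS1-1 minus R1.

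The number of the 10 genes called was 0 or 1 in CS1-1 minus R1 when single arrays were left out, with 1 (Nr0b1, at 1.03 and 1.05) under quantile normalization and median centring, and 1 (Prdm14, -1.07) in AH129-5 minus AH129-NC1 under median centring. By p alone, the count in ahES minus diploid ES ranged from 0 (1 mean per line) to 6 (no line block), and that in CS1-1 minus R1 from 2 (mean over a gene's probe sets) to 5, against 4. In round sperm minus MEF, Dppa4 was tested and called higher without the filter and without round sperm replicate 2.

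Genes called over the whole array moved by over 1.5 times with an offset of 64 (CS1-1 minus R1 613, AH129-5 minus AH129-N1 272, AH129-5 minus AH129-NC1 274, AH129-N1 minus AH129-NC1 112), with a filter at the 60th percentile (794, 422 and, for AH129-N1 minus AH129-NC1, 221), and in ahES minus diploid ES without R1 (1106), with 1 mean per line (282) and with no line block (967), against 564. With every probe set as a feature they were 1074, 11275, 12014, 21892, 22071, 21997, 2325, 1222, 1218 and 691, in the order ahES minus diploid ES, ahES minus MEF, diploid ES minus MEF, ahES minus round sperm, diploid ES minus round sperm, round sperm minus MEF, CS1-1 minus R1 and the 3 ahES pairs, since more features were tested. Leaving out 1 array gave 538 to 573 in ahES minus diploid ES and 1180 to 1224 in CS1-1 minus R1. With the replicate number as a replicate block, Dppa2 in ahES minus diploid ES differed by 0.87 (adjusted p = 0.0003459), and 524 genes were called in that comparison. Signals near background, for the representative probe sets of 8 of the 10 genes in MEF and of 4 in round sperm, set only lower bounds.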
